A study of Mus musculus with 31 samples.

Results

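Matrix metalloproteinases (MMPs) and their tissue inhibitors (TIMPs) were followed in mouse embryonic fibroblasts (MEFs) after infection with reprogramming factors. The set was chosen by gene name, with earlier results of these data known, out of 19938 genes with a single symbol on the array. Shares over all genes are given beside its counts as a description. It has 10 members, the proteases Mmp2, Mmp3, Mmp9, Mmp10, Mmp13 and Mmp14 and the inhibitors Timp1, Timp2, Timp3 and Timp4. Each member had 1 probe set, no filter on low values was applied, and all 10 were tested. MMPs are zinc-dependent endopeptidases that are made as inactive proenzymes and, once activated, cleave collagens, proteoglycans and other proteins of the extracellular matrix. TIMPs bind the active site of these enzymes and block them. Fibroblasts are a main source of both in connective tissue, and several secreted MMPs are known to be induced by growth factors and cytokines through the transcription factor AP-1.

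MEFs grown in DMEM with foetal bovine serum received retroviruses at day 0 and were measured as log2 signal on 31 single-colour Affymetrix arrays of total RNA. The 4F arm received Oct4, Sox2, Klf4 and c-Myc (pairs of arrays on days 1 to 6 and on day 8, 1 array each on days 10 and 12), and the GFP arm received GFP virus as the control (pairs on days 1, 3, 5 and 8, 1 array on day 12). The 3F arm received Oct4, Sox2 and Klf4 without c-Myc and had 1 array per time on days 3, 5, 8 and 12, and 2 uninfected day 0 arrays served as the start. All infected arms, GFP included, carried retrovirus, and the mouse strain and the source embryos are not given in the labels. The source label of the 3F arrays counts one factor more than it names, and their titles were followed. Paired arrays are titled as biological replicates without stating whether they came from separate cultures, so p-values measure the spread between these arrays. Labelling started from 120 ng of RNA for replicate 1 and from 300 ng for every other array.

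Array medians lay between 6.04 and 6.17. The factor labels were checked on the factors' own probe sets: Pou5f1 (Oct4) read at least 6.05 on every 4F array and at least 6.3 on every 3F array, against at most 5.6 on the GFP arrays. Sox2 read at least 5.74 in 4F, at least 5.86 in 3F and at most 5.57 in GFP. The uninfected day 0 arrays read 5.66 and 5.98, and so not all below the 4F or 3F arrays. The Klf4 and Myc probe sets did not separate the arms in that direction (Klf4 6.65 to 7.61 in 4F and 7.67 to 8.15 in GFP, Myc 6.37 to 8.5 in 4F and 6.58 to 9.72 in GFP), and whether they can detect the delivered sequences is not known. On the 3F arrays, which had no c-Myc virus, Myc read 7.95 to 9.37 and Klf4 7.55 to 8.49. The fibroblast label was borne by the fibroblast markers as a set, with Col1a1 between 10.74 and 13.78 on all infected arrays and 12.58 to 12.62 at day 0. Not every marker was high: Lum read 5.72 to 5.82 at day 0. The mean signal of 10 fibroblast markers ran from 10.24 to 10.37 at day 0, 10.53 to 12.2 in GFP, 10.45 to 11.11 in 3F and 9.41 to 10.53 in 4F. Of the 10, 9 were lower in 4F than in GFP over days 1, 3, 5 and 8, against 18.7% of all genes. Of 10 markers of pluripotent cells, 7 were higher in 4F over the same days and 9 on day 8 (median difference 2.42), against 3743 and 2900 of all 19938 genes. Their mean ran from 5.34 to 5.62 in GFP and from 5.49 to 8.9 in 4F. The list includes Pou5f1, the gene of the delivered Oct4. Both lists, like the marker lists used below, were written with earlier results of these data known. They moved with the members described here, and their part in those results was not tested. Since the arrays measured whole cultures, fewer fibroblasts and less RNA per fibroblast cannot be told apart.

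Promoter sequences are shown for the members whose signals moved most (Mmp3, Mmp13) and for Mmp14 and Timp2, whose group means ran most closely together. That of Mmp10, from the same gene cluster as Mmp3 and Mmp13, is shown too. Mmp10 moved little, at a low mean signal of 5.82. Each window covers 250 bases before to 50 bases after the annotated start, from RefSeq on GRCm38.p6, and 8 of the 10 members had an entry (not Mmp2 and Mmp9). The windows are chr9:7272264-7272563 (plus strand) for Mmp13, chr9:7445572-7445871 (plus) for Mmp3, chr9:7502092-7502391 (plus) for Mmp10, chr14:54431348-54431647 (plus) for Mmp14 and chr11:118355362-118355661 (minus) for Timp2. Capitals mark matches, searched on both strands, to the AP-1 element TGANTCA (N is any base), the TATA box TATAAA and the GC box GGGCGG. No match overlapped another.
Mmp13: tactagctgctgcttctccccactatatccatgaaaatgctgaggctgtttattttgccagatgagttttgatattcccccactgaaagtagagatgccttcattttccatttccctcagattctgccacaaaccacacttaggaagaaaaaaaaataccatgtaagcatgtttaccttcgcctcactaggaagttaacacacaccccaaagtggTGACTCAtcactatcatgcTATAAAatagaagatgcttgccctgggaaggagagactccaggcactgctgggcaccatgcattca
Mmp3: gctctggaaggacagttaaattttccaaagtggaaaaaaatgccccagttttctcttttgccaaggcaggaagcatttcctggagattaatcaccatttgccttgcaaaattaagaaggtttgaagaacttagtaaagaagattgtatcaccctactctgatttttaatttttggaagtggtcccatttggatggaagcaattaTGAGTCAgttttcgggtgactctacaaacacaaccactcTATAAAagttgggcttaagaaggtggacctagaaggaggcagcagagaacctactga
Mmp10: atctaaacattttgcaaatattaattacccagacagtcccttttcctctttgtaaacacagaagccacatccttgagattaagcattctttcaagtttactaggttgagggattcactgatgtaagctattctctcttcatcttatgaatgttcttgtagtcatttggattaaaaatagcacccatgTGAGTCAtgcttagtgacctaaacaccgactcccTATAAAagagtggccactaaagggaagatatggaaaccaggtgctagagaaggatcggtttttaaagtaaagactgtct
Mmp14: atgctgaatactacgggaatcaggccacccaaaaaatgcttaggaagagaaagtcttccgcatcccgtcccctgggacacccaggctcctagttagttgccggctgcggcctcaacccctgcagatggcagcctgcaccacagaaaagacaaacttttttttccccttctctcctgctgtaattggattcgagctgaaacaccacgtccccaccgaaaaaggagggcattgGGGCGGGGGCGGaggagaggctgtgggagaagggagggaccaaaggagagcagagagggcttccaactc
Timp2: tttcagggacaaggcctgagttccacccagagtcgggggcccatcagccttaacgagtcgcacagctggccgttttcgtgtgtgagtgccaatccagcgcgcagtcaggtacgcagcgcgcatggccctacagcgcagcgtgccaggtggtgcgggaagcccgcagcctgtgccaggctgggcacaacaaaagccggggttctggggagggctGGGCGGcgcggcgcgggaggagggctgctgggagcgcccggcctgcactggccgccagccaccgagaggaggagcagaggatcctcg
Mmp13, Mmp3 and Mmp10 each held one AP-1 element, beginning 35, 46 and 63 bases upstream of the start, and one TATA box closer to it. Mmp14 held a pair of adjacent GC boxes and Timp2 a single one, and neither held TGANTCA or TATAAA, nor did Timp1, Timp3 or Timp4. Among 32851 mouse promoter windows of the same length, 7.81% held TGANTCA, 13.62% TATAAA, 1.54% both, and 35.66% GGGCGG. Mmp13, Mmp3 and Mmp10 lie in one chromosome 9 cluster of 10 Mmp genes, of which 8 held an AP-1 match in a window (not Mmp8 and Mmp27). These matches describe the letters and do not show binding.

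By day 8, Mmp14 and the inhibitors Timp1, Timp2 and Timp3 had fallen below their day 0 signal in MEFs that received 4F, while in GFP-infected MEFs the proteases Mmp2, Mmp3, Mmp13 and Mmp14 and the inhibitor Timp2 had risen above it. Compared with GFP on the same day, 0 of 10 members differed on day 1 (limma, adjusted over all genes by the Benjamini-Hochberg method at a threshold of 0.05), where 1.81% of all genes differed in either direction. At an unadjusted p under 0.05 it was also 0 members, where 2561 of 19938 genes passed. On day 3, 7 members were lower in 4F (Mmp2, Mmp3, Mmp9, Mmp13, Mmp14, Timp2 and Timp3), against 5.65% of all genes that were lower. Without the day 3 replicate 1 array of either arm, 3 members were called on that day. Again on day 5, 7 members were lower, against 10.9% of all genes. On day 8 the 7 lower members were Mmp2, Mmp3, Mmp13, Mmp14, Timp1, Timp2 and Timp3, against 13% of all genes. Averaged over these 4 days, 9 members were lower and none was higher, against 18.7% of all genes that were lower, with Timp4 as the exception. On days 3, 5, 8 and 12, every 4F array lay below every GFP array for 5 members (Mmp2, Mmp3, Mmp13, Mmp14 and Timp2), a separation seen for 6.56% of all genes. With the replicate set as a block in the fit, Timp1 was lower in 4F on days 3 and 5 as well (adjusted p = 0.0053 and 0.0043), which makes 8 members on each of these days.

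**Figure D1:**
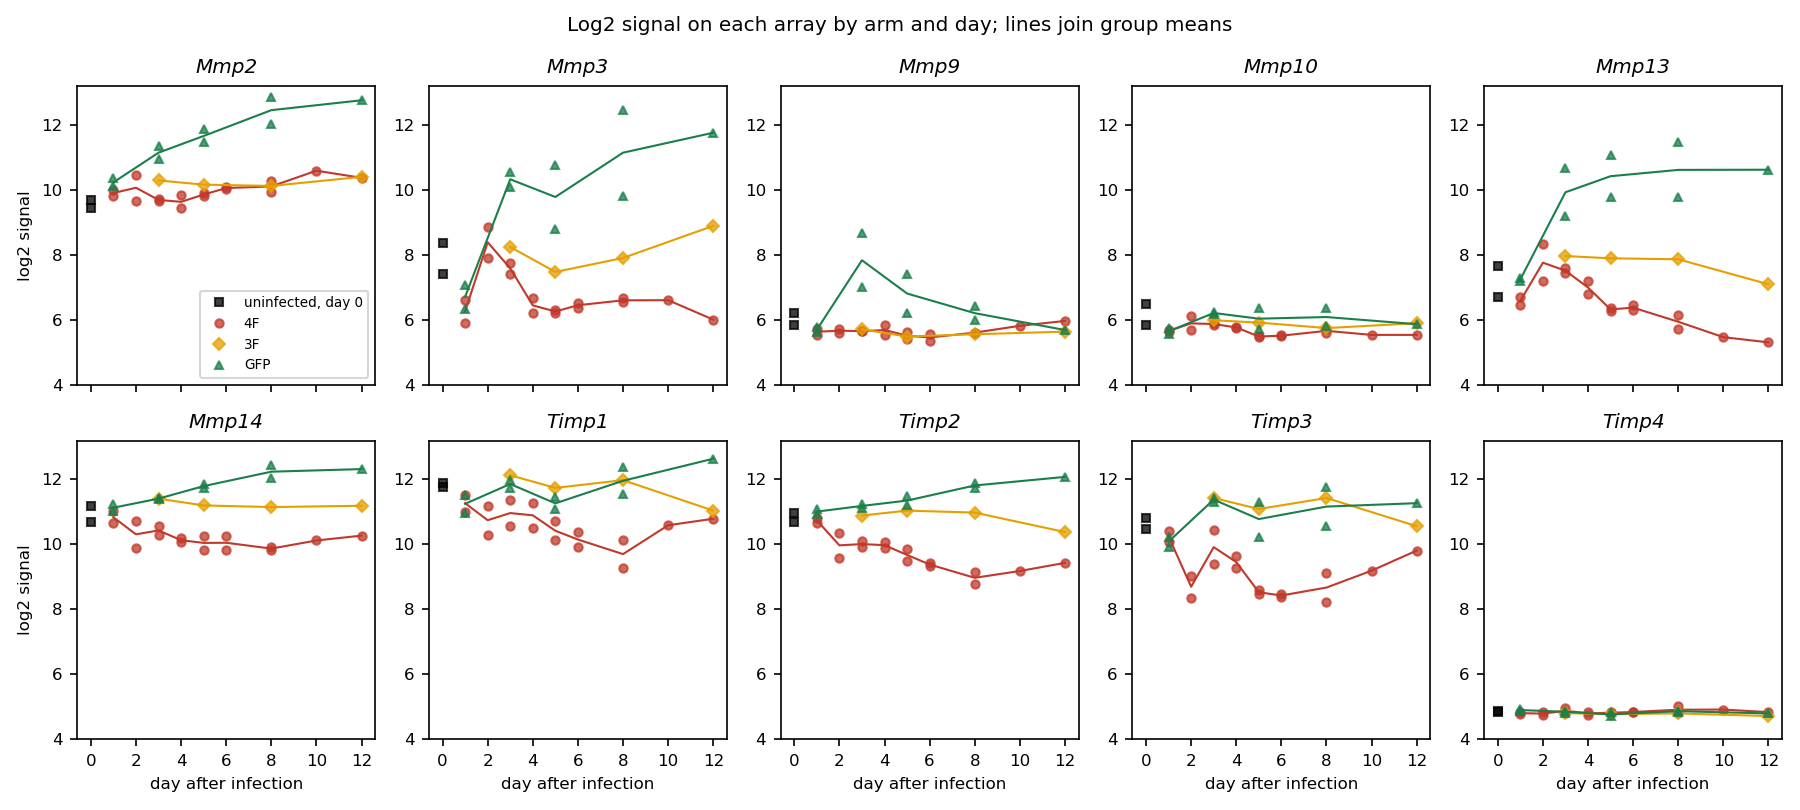
Log2 signal (vertical axis) of each member against day after infection (horizontal axis), with 1 point per array and lines joining group means of uninfected, 4F, 3F and GFP MEFs. Mmp3 reaches 12.47 on a GFP array of day 8 while the 4F arrays of that day read 6.66 and 6.53, and Timp4 stays between 4.7 and 5.01 throughout.

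Mmp2 encodes gelatinase A, which cleaves denatured collagen and type IV collagen and is activated at the cell surface by the Mmp14 protein together with TIMP-2. Its day 0 arrays read 9.44 and 9.68. The GFP arrays of Mmp2 read 10.35 and 10.11 on day 1, 11.35 and 10.94 on day 3, 11.86 and 11.46 on day 5, 12.87 and 12.04 on day 8 and 12.76 on day 12. With 4F, Mmp2 read 9.80 and 10.00 on day 1, 9.66 and 10.47 on day 2, 9.73 and 9.65 on day 3, 9.83 and 9.43 on day 4, 9.89 and 9.82 on day 5, 10.03 and 10.08 on day 6, 9.94 and 10.27 on day 8, 10.59 on day 10 and 10.37 on day 12. The GFP arrays were higher at each later time up to day 8, and the 4F arrays lay between 9.43 and 10.59. Mmp2 was 2.74-fold lower in 4F than in GFP on day 3 (log2 difference -1.45 ± 0.27 SE, limma adjusted p = 0.0027) and 5.1-fold lower on day 8 (-2.35 ± 0.27, adjusted p = 1.3e-05, 95% interval -2.93 to -1.77). On day 8 the replicate 1 pair differed by -2.93 and the replicate 2 pair by -1.77.

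Mmp9 encodes gelatinase B, the other type IV collagenase of the family. Its signal at day 0 was 6.22 and 5.85. In GFP-infected cells Mmp9 read 5.76 and 5.62 on day 1, 8.66 and 7.0 on day 3, 7.42 and 6.19 on day 5, 6.41 and 5.99 on day 8 and 5.68 on day 12. The 16 4F arrays lay between 5.34 and 5.96 with a median of 5.6. Mmp9 was thus high on the GFP arrays of day 3, with a smaller excess on day 5, and the GFP array of day 12 lay within the 4F range. All 4F values lay below 6.09, the median of all values in the table, which carries no detection call, so the log2 differences are given with no fold. They were -2.18 ± 0.41 on day 3 (limma adjusted p = 0.0026) and -1.3 ± 0.41 on day 5 (adjusted p = 0.033), while the day 8 difference of -0.6 ± 0.41 did not pass (adjusted p = 0.33, 95% interval -1.47 to 0.27). The day 3 difference was -3.01 in the replicate 1 pair and -1.36 in the replicate 2 pair, and was -1.36 without the GFP replicate 1 array, where it still passed. The day 5 call was lost without either 4F array (-1.4 without replicate 1, adjusted p = 0.1, and -1.2 without replicate 2, adjusted p = 0.14) or without the GFP replicate 1 array (-0.68, adjusted p = 0.37).

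Mmp3 encodes stromelysin-1, which degrades proteoglycans, fibronectin and laminin and activates other MMP proenzymes. Its group means spanned 5.77 log2 units, a span larger than that of 99.9% of genes. Day 0 arrays read 8.37 and 7.42. In the GFP arm Mmp3 read 6.34 and 7.07 on day 1, 10.56 and 10.09 on day 3, 10.78 and 8.78 on day 5, 12.47 and 9.82 on day 8 and 11.76 on day 12. In the 4F arm it read 5.89 and 6.62 on day 1, 7.91 and 8.86 on day 2, 7.42 and 7.74 on day 3, 6.68 and 6.20 on day 4, 6.30 and 6.20 on day 5, 6.52 and 6.37 on day 6, 6.66 and 6.53 on day 8, 6.60 on day 10 and 6.00 on day 12. On day 1 both arms lay below day 0, and on day 2 both 4F arrays exceeded both 4F arrays of days 1 and 4, a description with no test. Mmp3 was 6.74-fold lower in 4F than in GFP on day 3 (-2.75 ± 0.71, limma adjusted p = 0.019), 11.6-fold lower on day 5 (-3.53 ± 0.71, adjusted p = 0.002) and 23.4-fold lower on day 8 (-4.55 ± 0.71, adjusted p = 0.00017, 95% interval -6.06 to -3.04). The day 8 difference was -5.82 in the replicate 1 pair and -3.28 in the replicate 2 pair. The day 3 call was lost without 4F replicate 1 (-2.59, adjusted p = 0.12), 4F replicate 2 (-2.91, adjusted p = 0.064) or GFP replicate 1 (-2.52, adjusted p = 0.14).

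Mmp10 encodes stromelysin-2, a close relative of Mmp3 from the same chromosome 9 cluster. The day 0 arrays read 6.48 and 5.83, the 16 4F arrays 5.45 to 6.1 with a median of 5.65, and the 9 GFP arrays 5.55 to 6.36 with a median of 5.86. The arms overlapped, and the span of the group means was 0.72 log2 units, near the median of 0.64 over all genes. The mean over all arrays was 5.82, below 6.09, the median of all values. No detection call is given, so whether Mmp10 was expressed cannot be read from these values. No single day passed the test, and the mean over days 1, 3, 5 and 8 was lower in 4F (-0.32 ± 0.11, limma adjusted p = 0.033). That call was lost on leaving out any of 8 arrays, namely replicate 1 of 4F on days 1, 3 and 5, replicate 2 of 4F on day 8, replicate 2 of GFP on day 1 or replicate 1 of GFP on days 3, 5 and 8 (values from -0.32 to -0.24, adjusted p from 0.06 to 0.089). Mmp10 was called on day 5 without GFP replicate 2 (-0.88, adjusted p = 0.025), and 4F on day 8 was called below day 0 without day 0 replicate 2 (-0.83, adjusted p = 0.043).

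Mmp13 encodes collagenase-3, the main interstitial collagenase of rodents. The day 0 arrays read 7.64 and 6.71. The GFP arrays of Mmp13 read 7.28 and 7.20 on day 1, 10.66 and 9.19 on day 3, 11.06 and 9.78 on day 5, 11.46 and 9.77 on day 8 and 10.62 on day 12. With 4F, Mmp13 read 6.45 and 6.70 on day 1, 7.18 and 8.33 on day 2, 7.44 and 7.58 on day 3, 7.19 and 6.79 on day 4, 6.26 and 6.37 on day 5, 6.30 and 6.44 on day 6, 6.15 and 5.72 on day 8, 5.46 on day 10 and 5.30 on day 12. As for Mmp3, the 4F signal was higher on day 2 than on day 1 on both arrays, and the lowest 4F value was the single array of day 12. Mmp13 was 5.32-fold lower in 4F than in GFP on day 3 (-2.41 ± 0.56, limma adjusted p = 0.011), 17.2-fold lower on day 5 (-4.1 ± 0.56, adjusted p = 0.00012) and 25.6-fold lower on day 8 (-4.68 ± 0.56, adjusted p = 1.9e-05, 95% interval -5.88 to -3.47). Within the replicate sets the day 8 difference was -5.31 and -4.05. The 4F mean of Mmp13 on day 8 was 5.94, below 6.09, the median of all values. The deposited values carry no detection call, so the size of the day 8 fold is uncertain. The day 3 call was lost without replicate 1 of 4F (-2.34, adjusted p = 0.075) or of GFP (-1.68, adjusted p = 0.16). In each GFP pair from day 3 to day 8, replicate 1 read above replicate 2 for both Mmp3 and Mmp13, by 0.47 to 2.66 for Mmp3 and 1.28 to 1.69 for Mmp13.

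Mmp14 encodes MT1-MMP, a membrane-anchored collagenase that activates pro-MMP-2. The day 0 arrays read 10.68 and 11.18. With GFP virus, Mmp14 read 11.03 and 11.23 on day 1, 11.42 and 11.40 on day 3, 11.85 and 11.74 on day 5, 12.44 and 12.04 on day 8 and 12.32 on day 12. In the 4F arm it read 10.65 and 11.02 on day 1, 9.89 and 10.73 on day 2, 10.28 and 10.58 on day 3, 10.20 and 10.06 on day 4, 9.83 and 10.26 on day 5, 9.84 and 10.26 on day 6, 9.92 and 9.82 on day 8, 10.12 on day 10 and 10.27 on day 12. All 12 of the 4F arrays from day 3 on read below the lower day 0 array, and every GFP array of days 3 to 12 read above the higher one. Mmp14 was 1.98-fold lower in 4F than in GFP on day 3 (-0.98 ± 0.25, limma adjusted p = 0.019), 3.36-fold lower on day 5 (-1.75 ± 0.25, adjusted p = 0.00017) and 5.19-fold lower on day 8 (-2.37 ± 0.25, adjusted p = 5.9e-06). The day 3 call was lost without 4F replicate 1 (-0.83, adjusted p = 0.15), GFP replicate 1 (-0.97, adjusted p = 0.11) or GFP replicate 2 (-1, adjusted p = 0.059).

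Timp1 encodes a soluble inhibitor that is also known as a secreted growth factor for several cell types. The day 0 arrays read 11.90 and 11.78. The 4F arrays of Timp1 read 11.01 and 11.53 on day 1, 10.30 and 11.19 on day 2, 10.56 and 11.37 on day 3, 10.52 and 11.27 on day 4, 10.12 and 10.72 on day 5, 9.92 and 10.38 on day 6, 9.26 and 10.14 on day 8, 10.59 on day 10 and 10.79 on day 12. In the GFP arm it read 10.97 and 11.53 on day 1, 11.74 and 11.98 on day 3, 11.08 and 11.45 on day 5, 11.54 and 12.38 on day 8 and 12.64 on day 12. Every 4F array read below both day 0 arrays, the lowest group mean was that of day 8 (9.7), and replicate 2 exceeded replicate 1 in each infected pair of both arms. On day 8, Timp1 was 4.79-fold lower in 4F than in GFP (-2.26 ± 0.41, limma adjusted p = 0.00062). The differences on days 3 and 5, -0.89 ± 0.41 and -0.84 ± 0.41, passed the test with the replicate block and did not without it (adjusted p = 0.19 and 0.18).

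Timp2 encodes the inhibitor that also bridges MT1-MMP and pro-MMP-2 at the cell surface. The day 0 arrays read 10.68 and 10.97. In the 4F arm Timp2 read 10.67 and 10.81 on day 1, 9.59 and 10.35 on day 2, 9.93 and 10.09 on day 3, 9.88 and 10.07 on day 4, 9.50 and 9.85 on day 5, 9.34 and 9.42 on day 6, 9.15 and 8.79 on day 8, 9.18 on day 10 and 9.43 on day 12. With GFP virus, Timp2 read 10.94 and 11.08 on day 1, 11.12 and 11.25 on day 3, 11.21 and 11.49 on day 5, 11.88 and 11.75 on day 8 and 12.08 on day 12. From day 2 on, all 4F arrays lay below day 0, and from day 3 on all GFP arrays lay above it. Timp2 was 2.26-fold lower in 4F than in GFP on day 3 (-1.18 ± 0.2, limma adjusted p = 0.0014), 3.19-fold lower on day 5 (-1.68 ± 0.2, adjusted p = 4.3e-05) and 7.18-fold lower on day 8 (-2.84 ± 0.2, adjusted p = 2.2e-07, 95% interval -3.28 to -2.41). The day 8 difference was -2.72 in the replicate 1 pair and -2.97 in the replicate 2 pair.

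Timp3 encodes the inhibitor that stays bound to the extracellular matrix and that also blocks ADAM-family sheddases. The day 0 arrays read 10.47 and 10.82. With 4F, Timp3 read 10.07 and 10.42 on day 1, 8.36 and 9.03 on day 2, 9.39 and 10.44 on day 3, 9.26 and 9.65 on day 4, 8.47 and 8.58 on day 5, 8.48 and 8.37 on day 6, 8.21 and 9.13 on day 8, 9.19 on day 10 and 9.81 on day 12. In the GFP arm it read 9.93 and 10.24 on day 1, 11.44 and 11.32 on day 3, 10.24 and 11.32 on day 5, 10.56 and 11.77 on day 8 and 11.27 on day 12. The 4F means were low on day 2 (8.69), higher on day 3 (9.92) and low again on days 5 and 6 (8.53 and 8.43), while Mmp3 and Mmp13 were at their 4F maximum on day 2. Timp3 was 2.75-fold lower in 4F than in GFP on day 3 (-1.46 ± 0.44, limma adjusted p = 0.043), 4.77-fold lower on day 5 (-2.25 ± 0.44, adjusted p = 0.0017) and 5.63-fold lower on day 8 (-2.49 ± 0.44, adjusted p = 0.00049). Without replicate 1 of 4F, GFP replicate 1 or GFP replicate 2 the day 3 call was lost (-0.94, -1.41 and -1.52, adjusted p = 0.35, 0.19 and 0.096).

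Timp4, an inhibitor with a more restricted tissue distribution, read between 4.7 and 5.01 on all 31 arrays. It passed no test, with a difference between 4F and GFP of 0.04 on day 8 (limma adjusted p = 0.78). The deposited table carries no detection call, so whether Timp4 was expressed cannot be read from it.

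**Figure D2:**
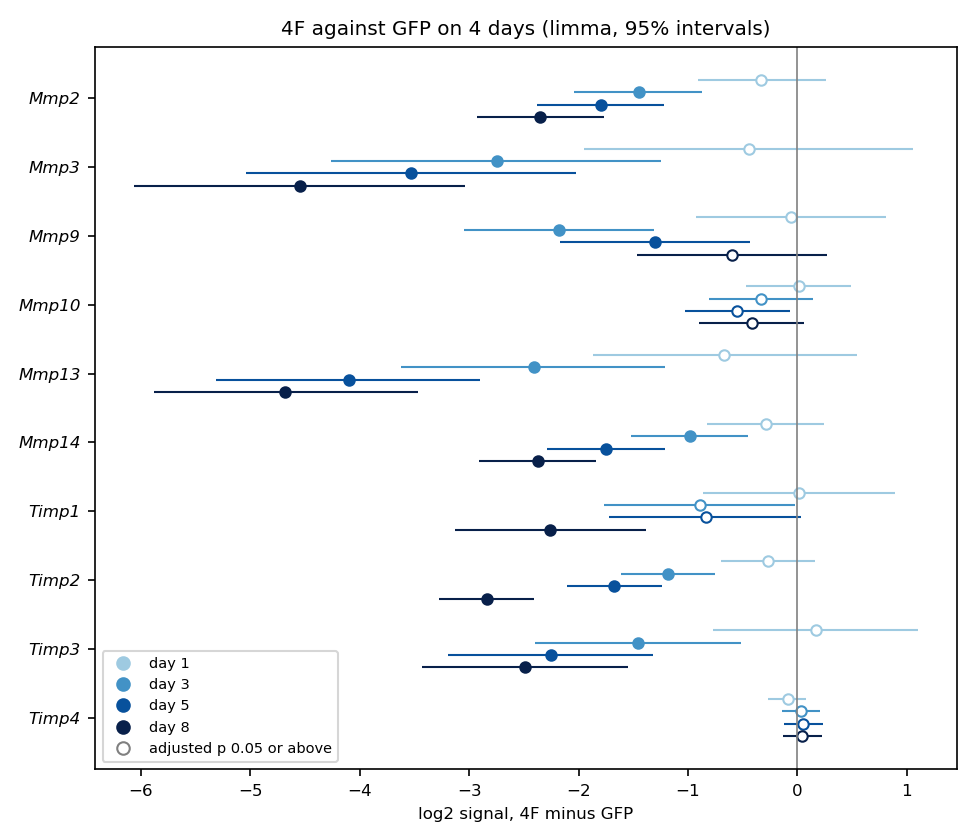
Difference in log2 signal, 4F minus GFP (horizontal axis), for each member on days 1, 3, 5 and 8, with limma 95% intervals as bars and open symbols where the adjusted p was 0.05 or above. All day 1 symbols are open, and on day 8 the differences of the 7 called members run from -4.68 (Mmp13) to -2.26 (Timp1).

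The difference between 4F and GFP widened from day 1 to day 8 for 7 members in the limma contrast of day 8 minus day 1 (Mmp2, Mmp3, Mmp13, Mmp14, Timp1, Timp2 and Timp3), against 4.57% of all genes. This contrast is built from the same arrays as the comparisons of days 1 and 8, and it called 4 members without replicate 2 of 4F or replicate 1 of GFP on day 1. Fitted on the arrays of the compared groups alone, the calls of Mmp9, Mmp13 and Timp3 on day 3 (adjusted p = 0.11, 0.073 and 0.11), of Mmp9 on day 5 (0.091) and of Mmp3 and Timp3 on day 8 (0.052 and 0.058) were lost, as were those of Mmp3, Timp1 and Timp3 for day 8 minus day 1 (0.11, 0.092 and 0.081). On day 12, with 1 array per arm and no test, the difference between 4F and GFP was -5.77 for Mmp3, -5.32 for Mmp13, -2.65 for Timp2, -2.38 for Mmp2, -2.04 for Mmp14, -1.85 for Timp1 and -1.46 for Timp3.

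By day 8 the GFP arm had 5 members higher than at day 0 (Mmp2, Mmp3, Mmp13, Mmp14 and Timp2), against 8.92% of all genes that were higher. Mmp13 rose 10.8-fold (3.44 ± 0.56, limma adjusted p = 0.00044), Mmp3 9.5-fold (3.25 ± 0.71, adjusted p = 0.0037), Mmp2 7.45-fold (2.9 ± 0.27, adjusted p = 5.9e-06), Mmp14 2.48-fold (1.31 ± 0.25, adjusted p = 0.0015) and Timp2 1.98-fold (0.99 ± 0.2, adjusted p = 0.0024). For Timp1 and Timp3 the GFP values differed from day 0 by 0.12 (95% interval -0.76 to 0.99) and 0.52 (-0.42 to 1.46). Without the GFP day 8 replicate 1 array, the Mmp3 value was 1.92 and did not pass (adjusted p = 0.066), nor did it with only the GFP day 8 and day 0 arrays in the fit (adjusted p = 0.11).

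In the 4F arm by day 8, 4 members were lower than at day 0 (Mmp14 and the inhibitors Timp1, Timp2 and Timp3), against 8.51% of all genes that were lower. Timp1 fell 4.41-fold (-2.14 ± 0.41, limma adjusted p = 0.002), Timp3 3.93-fold (-1.97 ± 0.44, adjusted p = 0.0057), Timp2 3.62-fold (-1.85 ± 0.2, adjusted p = 2.1e-05) and Mmp14 2.09-fold (-1.06 ± 0.25, adjusted p = 0.0086). The values of Mmp2, Mmp3 and Mmp13 were 0.55 (95% interval -0.04 to 1.13), -1.3 (-2.81 to 0.2) and -1.24 (-2.44 to -0.03), with adjusted p = 0.23, 0.28 and 0.18. Leaving out the day 0 replicate 2 array ended the calls of Mmp14 (-0.81, adjusted p = 0.11) and Timp3 (-1.8, adjusted p = 0.057), and leaving out the 4F day 8 replicate 1 array that of Timp3 (-1.51, adjusted p = 0.072). With only the 4F day 8 and day 0 arrays in the fit, Mmp14 and Timp3 were not called (adjusted p = 0.063 and 0.058). Both comparisons use the same day 0 arrays, and their values are set side by side without a test between them. One day after infection no member differed from day 0 in either arm at an adjusted p under 0.05 in limma, where 0.838% of all genes differed in 4F and 0.0903% in GFP. At an unadjusted limma p under 0.05, Mmp3 and Mmp10 were lower in 4F, and Mmp2 was higher and Mmp10 lower in GFP. At that threshold 1514 of 19938 genes differed from day 0 in 4F and 1761 in GFP, in either direction.

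**Figure D3:**
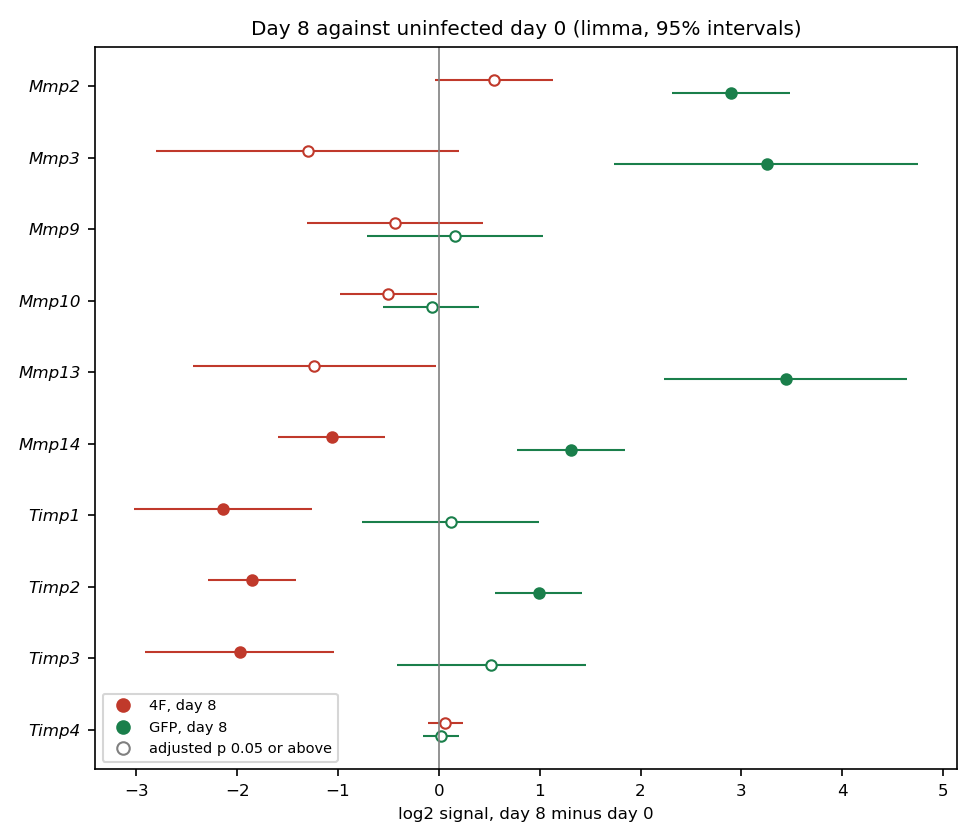
Log2 signal on day 8 minus uninfected day 0 (horizontal axis) for each member in the 4F and GFP arms, with limma 95% intervals as bars and open symbols where the adjusted p was 0.05 or above. The filled GFP symbols lie right of 0, up to 3.44 for Mmp13, and the filled 4F symbols left of it, down to -2.14 for Timp1.

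The 3F arm was infected without c-Myc virus, so by design it differed from 4F in the delivered c-Myc and from GFP in the other factors. The 3F arrays carry no replicate number, unlike the 4F and GFP arrays of days 3, 5 and 8. On those days arm and set of arrays cannot be told apart. In 3F, Mmp2 read 10.29, 10.16, 10.12 and 10.40 on days 3, 5, 8 and 12, Mmp3 8.24, 7.47, 7.90 and 8.89, and Mmp13 7.96, 7.89, 7.86 and 7.09. These proteases lay below the GFP arm: all 3F arrays read below all GFP arrays of the same days for Mmp2, Mmp13 and Timp2, a separation seen for 5.74% of all genes, and Mmp3 overlapped by 1 array. Mmp14 read 11.41, 11.20, 11.15 and 11.19, Timp1 12.13, 11.74, 11.98 and 11.04, Timp2 10.89, 11.04, 10.98 and 10.38, and Timp3 11.43, 11.09, 11.43 and 10.56. All 4F arrays of these days read below all 3F arrays for Mmp14, Timp2 and Timp3, as for 2.98% of all genes. Mmp9 lay between 5.48 and 5.70, Mmp10 between 5.74 and 5.98, and Timp4 between 4.71 and 4.80 in 3F.

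An additive limma model of day and arm compared 3F with the other arms over the 4 days, taking the days of 3F in the place of replicates. In it, 5 members were lower in 3F than in GFP (Mmp2, Mmp3, Mmp9, Mmp13 and Mmp14), against 8.82% of all genes that were lower. Without the 3F array of day 5, 8 or 12, 3 members were called. Mmp13 was 6.05-fold lower (-2.6 ± 0.46, adjusted p = 0.0011), Mmp3 5.81-fold (-2.54 ± 0.52, adjusted p = 0.0034), Mmp2 3.28-fold (-1.71 ± 0.22, adjusted p = 8.8e-05) and Mmp14 1.6-fold (-0.67 ± 0.2, adjusted p = 0.029), and Mmp9 differed by -1.14 ± 0.37 (adjusted p = 0.047). Timp1 and Timp3 differed by -0.13 (95% interval -0.86 to 0.6) and -0.01 (-0.74 to 0.71), and Timp2 by -0.72 ± 0.26 (adjusted p = 0.068). On day 12 alone, with 1 array per arm and no test, 3F minus GFP was -1.6 for Timp1 and -0.71 for Timp3. The group-mean model of days 3, 5 and 8 gave 0.26 and 0.21 for them. The averages of Timp1 and Timp3 thus join days of opposite sign. Timp2 was called lower in 3F with repeated normalization (-0.8, adjusted p = 0.046), without dim genes (-0.72, 0.041), in the group-mean model (-0.48, 0.031), and on leaving out replicate 2 of 4F on day 8 (-0.71, 0.045) or replicate 1 of GFP on day 3 (-0.81, 0.043). Mmp9 lost its call without any of 13 single arrays, with values from -1.25 to -0.98 and adjusted p from 0.052 to 0.15: each 3F array, both 4F arrays of days 3, 5 and 8, GFP day 3 replicate 2 and replicate 1 of GFP on days 5 and 8. The Mmp14 call was lost without the 3F array of day 5 (-0.7, adjusted p = 0.065), day 8 (-0.64, 0.098) or day 12 (-0.59, 0.11), the GFP array of day 12 (-0.59, 0.08) or GFP day 8 replicate 2 (-0.65, 0.052).

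In the same model, 4 members were lower in 4F than in 3F (Mmp14, Timp1, Timp2 and Timp3), against 5.77% of all genes that were lower. Without the 3F array of day 5, 2 members were called. Timp3 was 3.91-fold lower (-1.97 ± 0.34, limma adjusted p = 0.0043), Timp2 2.44-fold (-1.29 ± 0.26, adjusted p = 0.0084), Timp1 2.42-fold (-1.28 ± 0.34, adjusted p = 0.031) and Mmp14 2.11-fold (-1.08 ± 0.2, adjusted p = 0.006). Mmp2 differed by -0.23 (95% interval -0.69 to 0.24), and Mmp3 and Mmp13 by -1.38 ± 0.52 and -1.36 ± 0.46 (adjusted p = 0.11 and 0.075). Mmp13 was called without dim genes (-1.36, adjusted p = 0.041), in the group-mean model (-1.32, 0.03), and on leaving out replicate 2 of 4F (-1.53, 0.045) or of GFP (-1.37, 0.031) on day 3. Timp1 lost its call without the 3F array of day 3 (-1.23, adjusted p = 0.1), day 5 (-1.16, 0.14) or day 8 (-1.07, 0.15), 4F replicate 1 of day 3 (-1.24, 0.053) or day 5 (-1.26, 0.058), or 4F day 8 replicate 2 (-1.26, 0.051). Timp2 lost it without the 3F array of day 5 (-1.2, adjusted p = 0.054). The 2 comparisons share the 3F arrays. With the replicate set as a block, which compares 3F through its day 12 array alone, 2 members (Mmp2 and Mmp13) were called against GFP and 0 between 4F and 3F: Timp1 then differed by -0.03 (adjusted p = 1), Timp3 by -1.01 (0.63), Mmp14 by -0.77 (0.7) and Timp2 by -0.63 (0.88), and against GFP Mmp3 by -1.95 (0.22), Mmp9 by -0.75 (0.58) and Mmp14 by -0.98 (0.14). Set of arrays and arm therefore cannot be told apart for most of the 3F values.

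**Figure D4:**
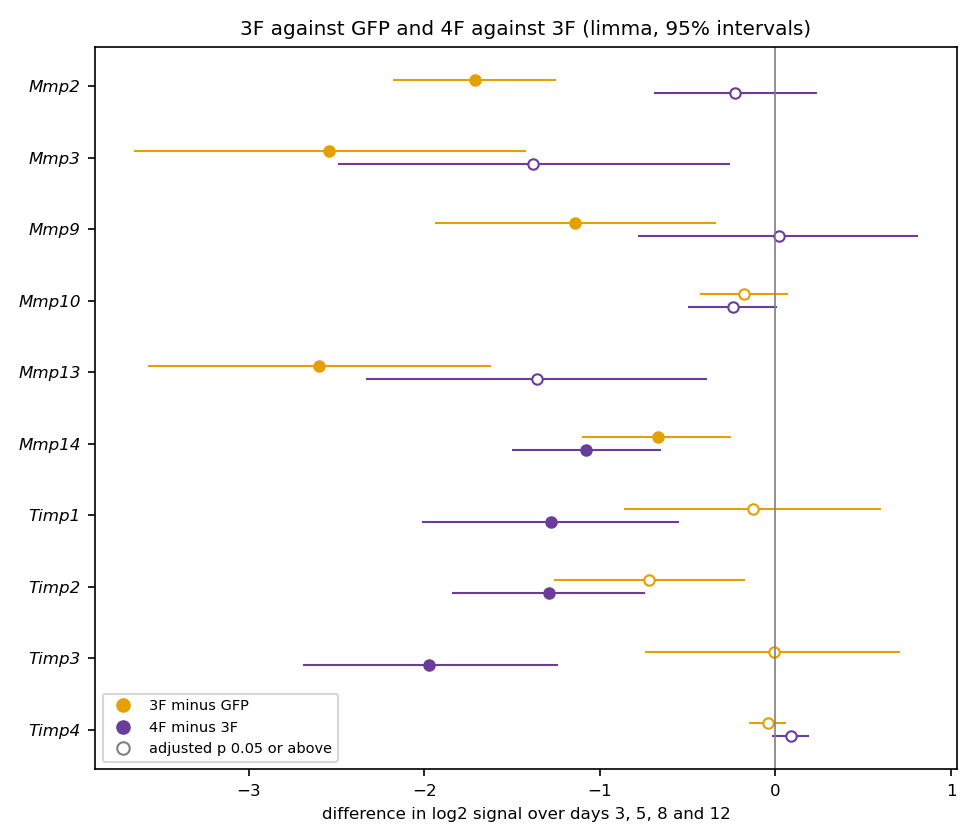
Difference in log2 signal over days 3, 5, 8 and 12 (horizontal axis) for 3F minus GFP and 4F minus 3F in the additive limma model, with 95% intervals as bars and open symbols where the adjusted p was 0.05 or above. The filled symbols of 3F minus GFP belong to Mmp2, Mmp3, Mmp9, Mmp13 and Mmp14, and those of 4F minus 3F to Mmp14, Timp1, Timp2 and Timp3.

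Over the 19 group means, Mmp3 and Mmp13 ran closely together (Pearson r 0.93), as did Mmp14 with Timp2 (0.95) and Timp1 with Timp3 (0.92) and Timp2 (0.91), while Mmp2 followed Timp1 and Timp3 less (0.5 and 0.47). These values describe groups that share arms and array sets and carry no test. Genes outside the set were searched only where their mean over all arrays exceeded 6.37, the median of gene means. Among these, the group means most like Mmp2 were those of Asap3 (0.97) and Rin2 (0.965), and those most like Mmp3 were Serpina3n (0.943) and Antxr1 (0.925). The closest to Mmp13 were Kif26b (0.981) and Cxcl5 (0.961), and to Mmp9 Ilvbl (0.817) and Dab2ip (0.814). Csgalnact1 (0.978) and Atxn1 (0.969) were closest to Mmp14, Plod3 (0.983) and Gpx8 (0.981) to Timp2, Emp3 (0.937) and Gpx8 (0.934) to Timp1, and Stx12 (0.951) and Galnt17 (0.946) to Timp3, each over 19 groups.

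Among 16 other MMPs that were measured, 10 were lower and 1 was higher in 4F than in GFP averaged over days 1, 3, 5 and 8 (limma adjusted p under 0.05), where 18.7% of all 19938 genes were lower and 3743 genes were higher. Their median difference was -0.31 against -0.03 over all genes. This list was written with earlier results of these data known. Mmp19, a secreted MMP that cleaves basement membrane proteins, had the greatest difference (-2.24 ± 0.18, adjusted p = 2e-07): its mean was 6.97 at day 0, 9.29 in GFP and 5.96 in 4F on day 8. Mmp23, a membrane-linked member, was lower by -1.73 ± 0.1 (adjusted p = 1e-08). Mmp28, epilysin, known from keratinocytes, went the other way (1.58 ± 0.07, adjusted p = 1.3e-09). Its mean was 6.27 at day 0 and 6.19 to 6.53 in the GFP groups, while 4F read 6.88 on day 1, 8.46 on day 3 and 8.01 on day 8. The 3F arrays of Mmp28 read 9.03, 9.54, 9.61 and 8.87, above every 4F array, and 3F differed from GFP by 2.92 ± 0.15 (adjusted p = 3.1e-08) and 4F from 3F by -0.97 ± 0.15 (adjusted p = 0.0027). Signals of 8 keratinocyte markers averaged 5.4 to 5.7 in 4F, 5.42 to 5.81 in 3F and 5.39 to 5.6 in GFP. Over days 1, 3, 5 and 8 limma called 1 of them higher and 0 lower in 4F than in GFP, against 3743 genes higher. In 3F against GFP it was also 1 higher and 0 lower, against 1888 genes higher. Krt14 read 5.53 to 7.5 in 4F, 5.98 to 7.04 in 3F and 5.52 to 6.16 in GFP. The part of these markers in the Mmp28 signal was not tested.

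Of the chromosome 9 cluster genes outside the set, Mmp8, the neutrophil collagenase, had group means of 4.69 at day 0, 6.36 in GFP on day 8 (arrays 5.5 and 7.23) and 7.95 on the GFP array of day 12, against 4.7 in 4F on day 8 (difference -1.66 ± 0.33, limma adjusted p = 0.0012). Mmp27 (-1.13 ± 0.15, limma adjusted p = 4.5e-05), Mmp12, macrophage elastase (-1.24 ± 0.34, adjusted p = 0.012), and Mmp1b (-0.72 ± 0.16, adjusted p = 0.0031) were also lower in 4F than in GFP on day 8. Their day 8 means in 4F and GFP were 4.9 and 6.03 for Mmp27, 5.63 and 6.87 for Mmp12, and 4.5 and 5.22 for Mmp1b. All but the GFP mean of Mmp12 lay below 6.09, the median of all values, and no detection call is given. Mmp1a, Mmp7 and Mmp20 read -0.13, -0.17 and -0.11 on day 8 and did not pass. The cluster thus held genes whose signal differed between the arms and genes, Mmp10 among them, that did not pass on that day. The day 8 means of those that did not pass lay below 6.09 in both arms. Macrophages also make MMPs: the mean of 10 macrophage markers was 5.58 to 6.01 in GFP and 5.5 to 6.16 in 4F. Over days 1, 3, 5 and 8 limma called 4 of them lower in 4F (Lyz2, Cd14, Csf1r and Ptprc) and 1 higher (Laptm5), with a median of -0.08. Of all 19938 genes, 18.7% were lower and 3743 were higher in that comparison. Lyz2 read 6.27 to 8.47 in GFP, 5.07 to 7.34 in 4F and 6.78 to 7.58 at day 0, and Cd14 reached 7.63 in GFP and 5.81 in 4F. Laptm5 read 5.68 to 6.08 in GFP and 6.37 to 9.25 in 4F, and Ptprc 4.94 to 5.38 in GFP and 4.84 to 5.09 in 4F. Csf1r read 5.52 to 6.01 in GFP and 5.28 to 6.37 in 4F, so its highest array was a 4F array. Cd68, not among those called, read 5.79 to 6.8 in GFP and 6.04 to 9.17 in 4F. The part of these markers in the MMP results was not tested.

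**Figure D5:**
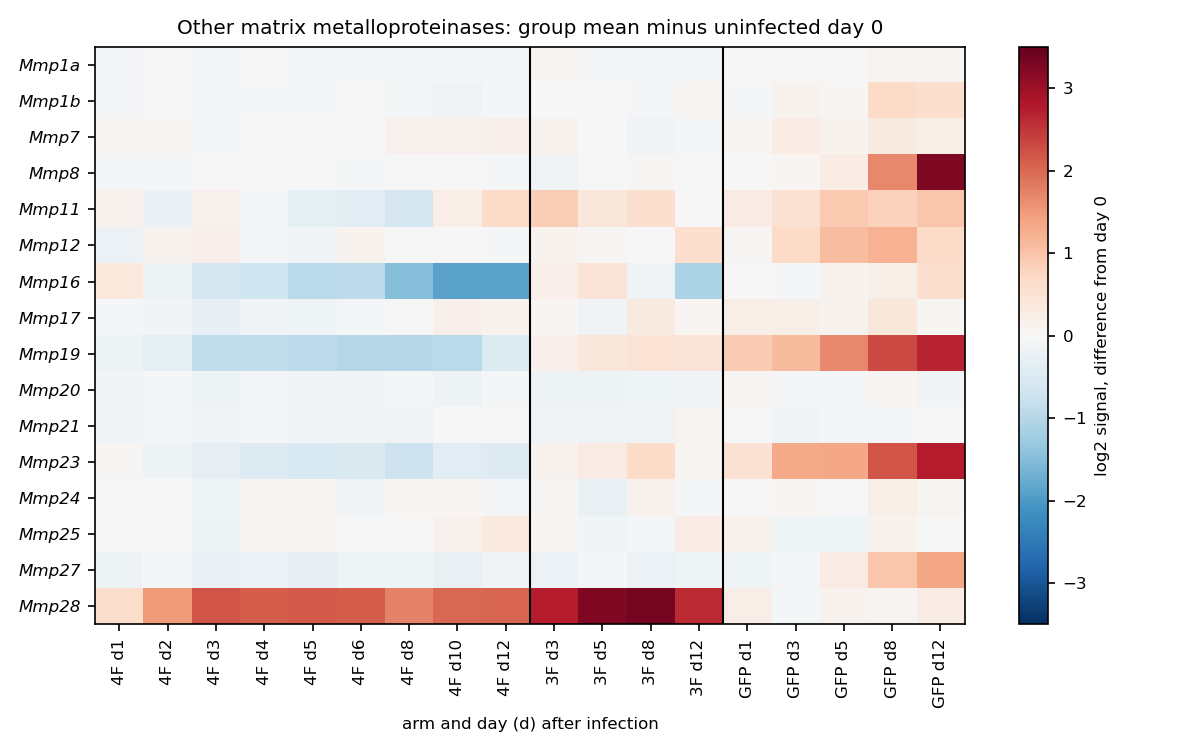
Group mean log2 signal minus uninfected day 0 for 16 other MMPs (rows) in each arm and day (columns), with red above and blue below day 0. Mmp28 is above day 0 in all 4F and 3F groups, and Mmp8, Mmp19 and Mmp23 are above it on days 8 and 12 in GFP.

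The enzymes that activate MMPs and the proteins that hold or clear them were lower in 4F where they differed from GFP. Both lists were written with earlier results of these data known, so their counts are no independent comparison with all genes. Of 11 measured genes of the plasminogen system and the proprotein convertases, 6 were lower and 0 higher over days 1, 3, 5 and 8 (limma, median -0.4), against 18.7% of all genes that were lower and an all-gene median of -0.03. They included the tissue and urokinase plasminogen activators Plat (-2.78 ± 0.17, adjusted p = 1.2e-08) and Plau (-1.64 ± 0.27, adjusted p = 0.00015) and Furin (-0.52 ± 0.06, adjusted p = 5.8e-06), the convertase that activates pro-MT1-MMP. Of 11 other inhibitors, receptors and docking partners, 9 were lower and 0 higher (median -0.74), again against 18.7% of all genes that were lower, among them the endocytic receptor Lrp1 (-1.54 ± 0.14, adjusted p = 5.2e-07), the protease inhibitor Tfpi2 (-1.25 ± 0.12, adjusted p = 1.3e-06) and the membrane-anchored MMP inhibitor Reck (-1.14 ± 0.13, adjusted p = 3.5e-06). Reck rose in GFP from day 0 to day 8 (2.32 ± 0.25, adjusted p = 1.7e-05) and differed by 0.03 in 4F (adjusted p = 0.97).

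Of 16 measured transcription factors known to act on MMP genes, 6 were lower and 2 higher in 4F than in GFP (median -0.14), against 18.7% of all genes lower and 3743 of 19938 higher, so that the count of higher genes was not above the background. The largest differences were those of Cebpb (-1.28 ± 0.12, limma adjusted p = 4.6e-07), Runx1 (-1.22 ± 0.12, adjusted p = 1.5e-06) and the AP-1 subunit Fosl2 (-1.1 ± 0.1, adjusted p = 6.3e-07). Of 14 inducing ligands and receptors, 9 were lower and 1 higher (median -0.87), against the same 18.7% of all genes lower, with Fgf7, a growth factor made by fibroblasts (-2.93 ± 0.22, adjusted p = 9.9e-08), Tgfb3 (-2.1 ± 0.18, adjusted p = 3.5e-07) and the oncostatin M receptor Osmr (-1.4 ± 0.2, adjusted p = 3.5e-05) leading. All 11 measured MMP substrates were lower (median -1.57), against 18.7% of all genes, with Tnc (-2.26 ± 0.19, adjusted p = 2.5e-07), Bgn (-2.25 ± 0.14, adjusted p = 1.2e-08) and Dcn (-2.12 ± 0.2, adjusted p = 8.9e-07), the matrix proteins tenascin C, biglycan and decorin, in front. Dcn and the collagens Col1a1, Col1a2 and Col3a1 are also among the fibroblast markers above. The lists of this paragraph were likewise written with earlier results of these data known, and their counts are a description. Compared with day 0, Tnc was lower in 4F on day 8 (-3.69 ± 0.38, adjusted p = 1.3e-05), while Dcn rose in GFP by 4.3 ± 0.41 (adjusted p = 5.9e-06).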

How the data were processed

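Per the labels' protocols, total RNA from MEFs was isolated with on-column DNase treatment, labelled with biotin and hybridised to Affymetrix whole-transcript arrays. The authors deposited log2 signals, 1 value per probe set and array, with a normalization not given in the sources used. The values were used as deposited. Of 28853 rows, 21789 carry a single gene symbol, 1621 several and 5443 none, and where a gene had more than 1 row the one with the highest mean over the 31 arrays was taken.

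All genes were fitted with limma 3.58.1 in R 4.3.3, with 1 mean per group over 19 groups (12 residual degrees of freedom), and, for 3F, with day and arm over 18 arrays (12 residual degrees of freedom). P-values were adjusted over 19938 genes (Benjamini-Hochberg, threshold 0.05). The number of arrays limits the precision. The script was tested on simulated data.

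Replicate numbers pair the arrays, since the labels tie replicate 1 to a smaller RNA input. Deviations of same-numbered arrays correlated across genes with r from 0.0808 to 0.686 (median 0.32, 65 of 66 pairs over 0.1). The main fits left the replicate set out, so their spread also holds differences between sets. For Timp1 on day 3 the SE was 0.41 in the main fit and 0.2 with the set as a block. Alternatives were the replicate set as a block, repeated quantile normalization, a variance trend, the mean of all rows of a gene, a filter on dim genes, a fit of the compared groups alone, a group-mean model for 3F, and leaving out each array.

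Members and gene lists were chosen with earlier results of these data known. Beside the members, the text names the 3 genes of each list with the largest difference between 4F and GFP over 4 days among those called, the chromosome 9 cluster genes, and the 2 genes most like each member whose group means span over 1 log2 unit. The search for like genes covered only genes with a mean over all arrays above the median of gene means. Some genes of the lists are not analysed here, and list counts cover the measured genes.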

Additional observations from a re-analysis of the deposited data

Results flagged for a closer look

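For 7 members the difference between 4F and GFP changed between day 1 and day 8, as tested by the limma contrast of day 8 minus day 1 over 8 arrays of those groups, with the spread taken from the 12 groups that had 2 arrays. On the log2 scale the difference moved by -4.11 ± 1 for Mmp3 (adjusted p = 0.018), -4.01 ± 0.8 for Mmp13 (0.0055), -2.66 ± 0.62 for Timp3 (0.015), -2.57 ± 0.29 for Timp2 (8.5e-05), -2.27 ± 0.58 for Timp1 (0.023), -2.08 ± 0.36 for Mmp14 (0.0021) and -2.02 ± 0.39 for Mmp2 (0.0042). The calls of Mmp3, Timp1 and Timp3 were lost without replicate 2 of 4F on day 1 (-3.74, -2.01 and -2.48, adjusted p = 0.084, 0.11 and 0.066) or without replicate 1 of GFP on day 1 (-3.74, -1.99 and -2.5, adjusted p = 0.073, 0.099 and 0.058). That of Mmp3 was also lost without GFP day 8 replicate 1 (-2.78, adjusted p = 0.062). Those of Timp1 and Timp3 were lost as well without replicate 1 of 4F on day 8 (-1.83 and -2.2, adjusted p = 0.092 and 0.059) or replicate 2 of GFP on day 8 (-1.86 and -2.05, adjusted p = 0.093 and 0.062).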

How the results depend on the processing

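Of 55 called member values, none changed sign under the other settings: 311 of 330 recomputed values kept their call and 19 lost it, and with single arrays left out 420 of 482 kept it and 62 lost it. Of the values not called, 7 of 378 became called under other settings and 6 of 438 with an array left out, among them Timp2 in 3F minus GFP and Mmp13 in 4F minus 3F. With the compared groups alone in the fit, the members called were 4 on day 3, 4 for day 8 minus day 1 and 2 for 4F on day 8 against day 0. With the replicate block they were 2 for 3F minus GFP and 0 for 4F minus 3F, and the block changed no other member's call than those of the 3F comparisons and Timp1 on days 3 and 5. With single arrays left out, the members called ran from 3 to 6 on day 3, from 4 to 7 for day 8 minus day 1, from 3 to 6 for 3F minus GFP and from 2 to 5 for 4F minus 3F. Values that changed sign belonged to members that were not called. Other settings gave -0.01 for Timp4 in GFP on day 8 against day 0 (repeated quantile normalization), 0.26 for Timp1 and 0.21 for Timp3 in 3F minus GFP (group-mean model), and 0.19 for Mmp2 and -0.38 for Mmp9 in 4F minus 3F (block). With arrays left out, 4F minus GFP on day 1 ran from -0.08 to 0.1 for Mmp10, -0.14 to 0.03 for Mmp9, -0.26 to 0.29 for Timp1 and -0.01 to 0.34 for Timp3. Timp4 ran from -0.05 to 0.12 on day 3, -0.01 to 0.12 on day 5, -0.07 to 0.15 on day 8, -0.02 to 0.04 over the 4 days and -0.05 to 0.17 for 4F against day 0. On day 1 against day 0, Mmp14 ran from -0.35 to 0.16 and Timp2 from -0.23 to 0.06 in 4F, and Mmp13 from -0.4 to 0.53 and Mmp14 from -0.05 to 0.45 in GFP. GFP on day 8 against day 0 ran from -0.4 to 0.25 for Mmp10, -0.04 to 0.37 for Mmp9, -0.3 to 0.54 for Timp1 and -0.09 to 1.13 for Timp3. For 3F minus GFP, Timp1 ran from -0.33 to 0.22 and Timp3 from -0.2 to 0.25, and for 4F minus 3F Mmp9 from -0.17 to 0.12. Counts over all genes moved more. With the block they were 924 on day 1 (361 without it), 3749 on day 3 (2378), 2820 for day 8 minus day 1 (1693), 369 and 143 for 4F and GFP on day 1 against day 0 (167 and 18) and 14 for 4F minus 3F (1921). With the compared groups alone they were 0 on day 1, 760 on day 3, 2382 on day 8 (5497 otherwise), 816 for day 8 minus day 1, 34 and 0 for 4F and GFP on day 1 against day 0, and 1091 and 2450 for 4F and GFP on day 8 against day 0 (3169 and 4006). The group-mean model gave 3969 for 4F minus 3F, and repeated normalization 30 for GFP on day 1 against day 0. Single arrays left out gave 23 to 40 on day 1 for 3 of 4 arrays, 1134 and 1181 on day 3 without replicate 1 of GFP or 4F, 2427 on day 5 without 4F replicate 1 (4265 with it), 922 for day 8 minus day 1 without 4F day 1 replicate 2, 29 to 61 and 3 to 42 for 4F and GFP on day 1 against day 0, 1958 for 4F on day 8 without day 0 replicate 2, and 440 to 1239 for 4F minus 3F without a 3F array of days 3, 5 or 8 or 4F day 5 replicate 1. The cause was not tested, except that the compared groups alone leave fewer arrays to estimate the spread.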

Other observations

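Mmp16, a membrane-type MMP chosen here after its values were seen, fell along the 4F arm, with group means of 7.88 on day 1, 6.93 on day 3, 6.03 on day 8 and 5.64 on each of the single arrays of days 10 and 12. Its GFP means lay between 7.45 and 8.08, and its 3F arrays read 7.71, 7.98, 7.4 and 6.4 on days 3, 5, 8 and 12.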
